A study of Mus musculus with 24 samples.

Results

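The miR-29 microRNAs were followed in mouse lung from birth to young adulthood through 5 names on the array: the main arms mmu-miR-29a, mmu-miR-29b and mmu-miR-29c, and the minor arms mmu-miR-29a* and mmu-miR-29c*. They were taken by name from the 650 miRNA names of the array design. A miRNA hairpin gives a mature RNA from each of its arms, and the asterisk marks the arm that usually builds up less. Total RNA came from whole lungs of healthy C57BL/6 mice with no genetic change or treatment, at day 1, day 4, day 7 and day 14 after birth with 5 arrays each and at day 42 (6 weeks in the labels) with 4 arrays. Each array is labelled as a separate biological replicate. The labels do not say whether a replicate was 1 mouse, nor give the sex. The title names fetal lungs, but all sample labels give ages after birth, and these ages were used.

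A miRNA lowers the output of messages that pair with its seed, bases 2 to 8 from the 5′ end. miR-29 is known for pairing with many messages of the extracellular matrix, among them those of fibrillar collagens, elastin and fibrillin, and TGF-beta lowers miR-29 in cultured fibroblasts. In lung, low miR-29 is known from fibrosis in mice and people. Alveoli form mainly in the first weeks of a mouse's life, a time when lung fibroblasts lay down elastin and collagen. Messages and proteins were not analysed here.

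The sequences are shown because the 3 main arms share a seed, which makes them a family, while the minor arms do not. They are RefSeq's mature sequences on mouse build GRCm38.p6, written 5′ to 3′ with the seed in capitals.
miR-29a: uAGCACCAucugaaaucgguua
miR-29b: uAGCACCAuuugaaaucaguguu
miR-29c: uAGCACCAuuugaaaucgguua
miR-29a*: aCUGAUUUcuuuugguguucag
miR-29c*: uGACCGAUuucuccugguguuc
The seed AGCACCA was held by 3 mature names of the RefSeq table, which are these 3 main arms. Counted from 1 at the 5′ end, miR-29c and miR-29a were the same at 21 of 22 positions and differed by U10C (miR-29c base, position, miR-29a base). miR-29c and miR-29b differed at 3 of 22 compared positions, G18A, U21G and A22U, all near the 3′ end, and miR-29b is 23 bases long. In human cells that end of miR-29b is known to carry a signal for import into the nucleus. The minor arms had a seed of their own each, CUGAUUU and GACCGAU, and differed from each other at 17 of 22 positions. The near identity of the main arms means that the probes of 1 could also bind another, and such sharing of signal was not tested.

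Each pair of hairpins lies close together in the genome. Mir29a, with miR-29a at chr6:31062673-31062694 and miR-29a* at chr6:31062711-31062732, lies on the minus strand, 275 bases from Mir29b-1, which carries miR-29b at chr6:31063025-31063047. Mir29c, with miR-29c at chr1:195037600-195037621 and miR-29c* at chr1:195037562-195037583, lies on the plus strand, 426 bases from Mir29b-2, which carries miR-29b at chr1:195037091-195037113. The array cannot tell which of these copies a miR-29b molecule came from. The array also carries mmu-miR-29b*, a minor arm that is not among the 5. RefSeq gives the 2 hairpins of miR-29b separate minor arms, so this name could not be tied to either and no sequence is shown for it.

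Values are scaled signals, in intensity units, scaled so that every array has the same 75th percentile over the 228 miRNAs that all arrays detected. Levels of different miRNAs cannot be compared on this scale, because their probes differ. All 5 names entered the tests among 322 tested miRNAs. miR-29a* did so only because all 4 arrays of day 42 detected it, so it is left out of counts of members read as a result. For the same reason its p-values, given below, are not read as support for a rise. Arrays differed in brightness, from 923 to 4954 intensity units at the 75th percentile before scaling, and the means of the 5 ages, from the youngest to the oldest, were 1539, 1957, 2418, 3239 and 3104. Array 5 of day 14 stood apart from its group. Over all tested miRNAs its correlation with the other day 14 arrays was 0.972 to 0.981, below the 0.987 to 0.996 among those arrays, and it was 0.980 to 0.991 with the day 7 arrays. Results that rest on it are given with and without it.

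miR-29a held a steady level through the first week and was then higher at each later age. Its scaled signal on the 5 arrays was 1426, 1500.1, 1603, 795 and 1101 at day 1, then 1086, 1433, 1342, 1239 and 1355 at day 4, and 1581, 1405, 1367, 1374 and 1445 at day 7. The arrays of these 3 ages overlapped. At day 14 it was 5823, 6627, 5975, 5884 and 2169.9, with array 5 the low value, and at day 42 it was 18952, 17732, 17226 and 16425. The lowest array of day 14 lay above all arrays of day 7, and the lowest of day 42 above all of day 14.

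Through the first week miR-29c went from a mean log2 level of 8.54 at day 1 to 9.13 at day 7, a change not tested. It was then higher at each later age, with wider spread at day 1 than miR-29a. It measured 408, 619, 619.7, 165 and 278 at day 1, then 256, 519.7, 385, 459 and 526 at day 4, and 628, 575, 546, 517 and 542 at day 7. At day 14 it measured 2338, 2536, 2466, 2483 and 876, again with array 5 lowest, and at day 42 it measured 6536, 6494, 6995 and 4316. No array of day 14 overlapped those of day 7, and none of day 42 overlapped those of day 14.

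miR-29b, the arm encoded in both hairpin pairs, had the widest spread between arrays of the 5 names at day 1, day 4, day 7 and day 42, though not at day 14. It measured 226, 615, 789, 53.7 and 126 at day 1, then 94.9, 432, 161, 522 and 611 at day 4, and 721, 715, 656, 405 and 414 at day 7. At day 14 it measured 1652, 1788, 1923, 2428 and 796, and at day 42 it measured 4925, 5536, 5907 and 1354. The fourth array of day 42 fell inside the range of day 14 and below 4 of its 5 arrays, so these ages overlapped, while day 14 and day 7 did not.

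The minor arm miR-29c* was dim but followed miR-29c. It measured 23.1, 33.5, 35.0, 26.0 and 24.3 at day 1, where 2 of 5 arrays detected it, then 21.3, 37.7, 37.0, 32.0 and 32.0 at day 4, where 4 of 5 did. The day 7 arrays measured 35.9, 33.9, 33.4, 37.2 and 34.7, the day 14 arrays 87.1, 89.0, 79.7, 81.9 and 45.2, and the day 42 arrays 162, 151, 162 and 161. From day 7 on all arrays detected it, and the arrays of day 7, day 14 and day 42 did not overlap.

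The minor arm miR-29a* was at the limit of detection in the first week. It was detected on 0 of 5 arrays of day 1, 0 of 5 of day 4 and 1 of 5 of day 7, with scaled signals between 5.98 and 11.4 at these ages, around the floor of 7.24 under which values were set to the floor. At day 14 it measured 22.2, 18.3, 22.3 and 24.9 on the 4 arrays that detected it and 7.93 on array 5, which did not. At day 42 all 4 arrays detected it, at 29.0, 28.7, 45.3 and 24.1. The day 42 and day 14 arrays overlapped, and all arrays of day 42 lay above all of day 1.

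**Figure D1:**
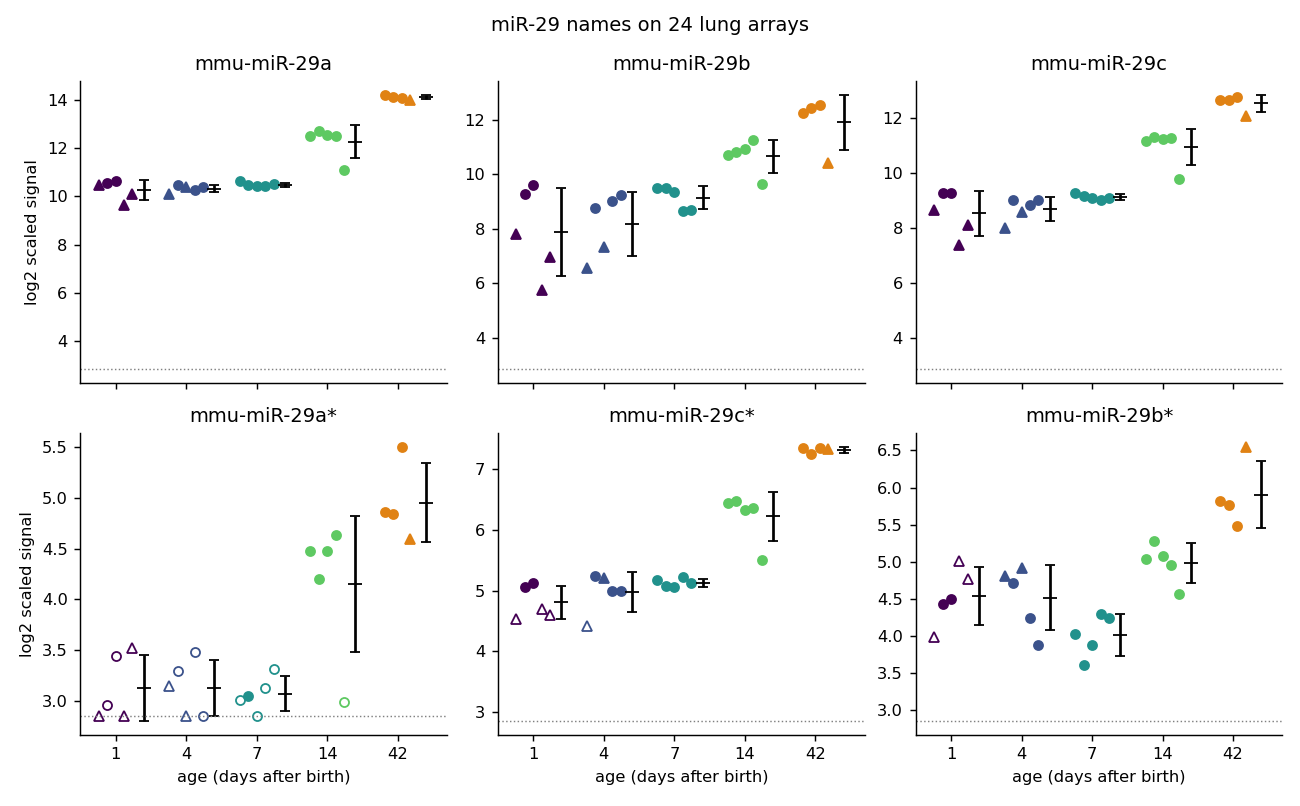
Log2 scaled signal (vertical axis) of the 5 names and of miR-29b* on each array, by age in days (horizontal axis, low to high), for 5 arrays per age and 4 at day 42. Filled marks are arrays that detected the name, open marks arrays that did not, triangles the 6 dimmest arrays, black bars the mean ± SD and the dotted line the floor of 2.86. The low mark at day 14 in the panels of miR-29a and miR-29c is array 5.

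The comparison of day 42 with day 1 spans the whole series and asks how the adult lung differs from that of the newborn. All 3 main arms rose by about 4 log2 units, and they were the 3 largest rises among the 322 tested miRNAs. miR-29a averaged 14.10 ± 0.09 on the log2 scale at day 42 (SD, n = 4), against 10.28 ± 0.42 at day 1 (SD, n = 5), a rise of 3.82 ± 0.24 log2 units or 14.1-fold (limma, adjusted p = 4.04e-12). miR-29c averaged 12.55 ± 0.32 at day 42 (SD, n = 4), against 8.54 ± 0.81 at day 1 (SD, n = 5), a rise of 4.00 ± 0.34 or 16.0-fold (limma, adjusted p = 5.12e-10). miR-29b averaged 11.91 ± 1.01 at day 42 (SD, n = 4), against 7.89 ± 1.61 at day 1 (SD, n = 5), a rise of 4.02 ± 0.66 or 16.2-fold (limma, adjusted p = 1.48e-05). Changes are given with the standard error of the model, and calls were made where the adjusted p was under 0.05. In whole lung RNA, more cells that hold miR-29 and more miR-29 in each cell cannot be told apart.

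The minor arms were also higher at day 42. miR-29c* averaged 7.31 ± 0.05 at day 42 (SD, n = 4), against 4.80 ± 0.28 at day 1 (SD, n = 5), a rise of 2.51 ± 0.19 or 5.69-fold (limma, adjusted p = 4.52e-11). miR-29a* averaged 4.95 ± 0.39 at day 42 (SD, n = 4), against a value near the floor of 3.13 ± 0.33 at day 1 (SD, n = 5). Since no array of day 1 detected it, its fold is a bound, and it was at least 2.36-fold higher at day 42. The limma adjusted p of 2.28e-06 is that of the fitted change of 1.82, on undetected day 1 values, and not of this bound. This bound sets each day 1 array at the highest of the floor, its own signal and the dimmest detected miRNA of that array. In the direction of the rise, 18.9 percent of the tested miRNAs were called, against 4 of 4 members other than miR-29a*. Over 6 scalings, the number of the 322 called as a rise was 61 to 145, and 61 is that of the scaling used. All day 42 arrays lay above all day 1 arrays for 13.4 percent of the tested miRNAs and for the same 4 members. The direction of the minor arms turned with a model-based background correction (normexp). Under it the change of miR-29a* was -1.34 (limma, adjusted p = 0.0377) and that of miR-29c* -0.32 (limma, adjusted p = 0.536). The main arms kept their direction, at 3.62, 2.84 and 3.18 for miR-29a, miR-29b and miR-29c. The median over all tested miRNAs was itself -1.19 under normexp. Against that median miR-29c* stood at 0.87 and miR-29a* at -0.15. Array 3 of day 1 was at 10.25 for miR-29c* under normexp, against 7.57 to 8.35 on the other day 1 arrays. For miR-29a* it was at 11.24, against 8.32 to 9.28.

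Brightness moved with age and with miR-29b. Among arrays of the same age, miR-29b rose by 2.02 ± 0.26 log2 units for each doubling of array brightness, which only 1.86 percent of the tested miRNAs reached or passed. The same slope was 0.86 ± 0.19 for miR-29c, 0.37 ± 0.17 for miR-29a, 0.31 ± 0.19 for miR-29a* and 0.22 ± 0.13 for miR-29c*, against a median of -0.18 over all tested miRNAs. With brightness as a covariate, the change from day 1 to day 42 was 1.99 for miR-29b, 3.14 for miR-29c, 3.45 for miR-29a and 2.28 for miR-29c*, and these 4 were still called (limma, largest adjusted p = 0.000335). Without the 6 dimmest arrays, of which 3 were of day 1, miR-29b changed by 2.97 and miR-29c by 3.43.

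**Figure D2:**
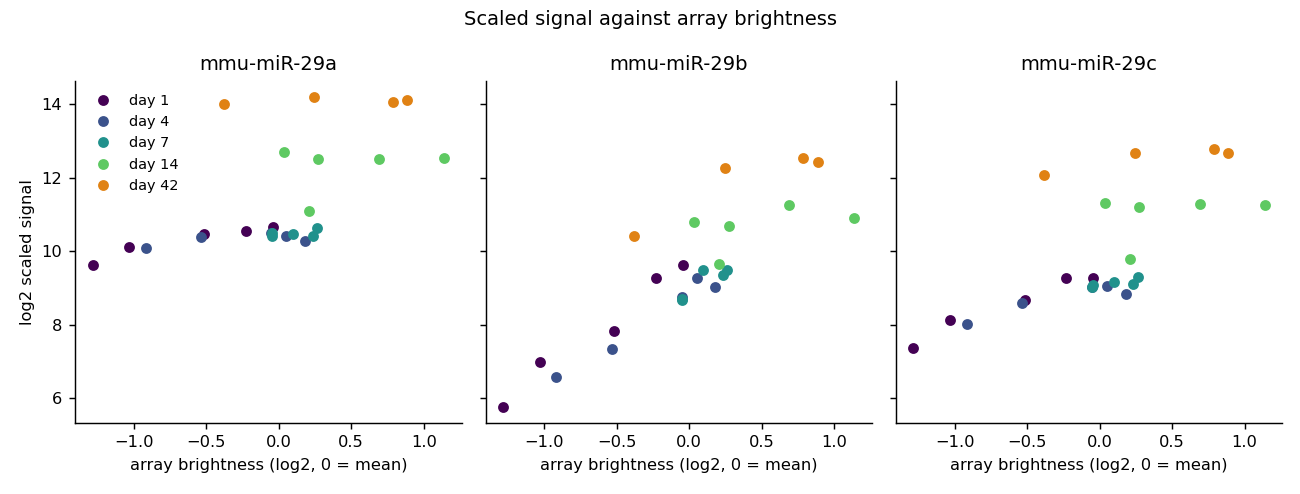
Log2 scaled signal (vertical axis) of miR-29a, miR-29b and miR-29c against the array's brightness (horizontal axis, log2 of the 75th percentile before scaling, centred at the mean of all arrays), 1 point per array, coloured by age. At days 1 and 4 the low points of miR-29b are the dimmest arrays, and the day 14 and day 42 points of miR-29a lie above all earlier ones at every brightness.

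The steps between neighbouring ages show between which ages a rise was called. Day 7 was not tested against day 1, so a change spread over the first week could be missed. From day 1 to day 7 the mean log2 level went from 7.89 to 9.14 for miR-29b and from 8.54 to 9.13 for miR-29c. From day 1 to day 4, 0 of the 5 names were called by limma, and 0 had an unadjusted p under 0.05. In this step 1.55 percent of the tested miRNAs were called in either direction. miR-29a changed by 0.04, with a 95% interval of -0.43 to 0.52, and miR-29c by 0.16, with an interval of -0.51 to 0.83. The interval of miR-29b was wider, from -0.99 to 1.59. From day 4 to day 7, again 0 of the 5 names were called by limma and 0 had an unadjusted p under 0.05, with 0.311 percent of the tested miRNAs called in either direction. The largest change among the 5 in this step was that of miR-29b, 0.95 with an interval of -0.34 to 2.24. The intervals of miR-29b therefore reached 1.59 and 2.24 upwards in these steps, and those of miR-29a 0.52 and 0.63.

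The second week brought the first called rises. Day 14 against day 7 gave changes of 1.79 ± 0.23 for miR-29a (limma, adjusted p = 2.20e-06), 1.83 ± 0.32 for miR-29c (9.57e-05) and 1.09 ± 0.18 for miR-29c* (3.54e-05). miR-29a*, detected on 4 of 5 arrays of day 14 and 1 of 5 of day 7, changed by 1.08 ± 0.25 against day 7 values near the floor (limma, adjusted p = 0.00132), so the size of this change is uncertain. miR-29b changed by 1.52 ± 0.62 and was not called (limma, adjusted p = 0.0667), although its arrays did not overlap. Of the tested miRNAs 7.45 percent were called as a rise here, against 3 of 4 members other than miR-29a*. Without array 5 of day 14 the changes were 2.08 for miR-29a, 2.13 for miR-29c, 1.27 for miR-29c*, 1.37 for miR-29a* and 1.77 for miR-29b, which was then called (limma, adjusted p = 0.0388). With normexp the calls of the minor arms ended, at 0.71 for miR-29c* and 0.50 for miR-29a* (limma, adjusted p = 0.696 for each). Array 3 of day 14 was at 10.16 for miR-29c* under normexp, against 7.37 to 7.86 on the other day 14 arrays. For miR-29a* it was at 11.13, against 7.61 to 8.17. The normexp changes include that array, and no normexp fit was made without it.

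A second step followed between day 14 and day 42. Day 42 against day 14 gave changes of 1.83 ± 0.24 for miR-29a (limma, adjusted p = 4.21e-06), 1.58 ± 0.34 for miR-29c (0.000945) and a 2.14-fold rise of miR-29c* (8.05e-05). These were 3 of the 4 members other than miR-29a*, against 4.66 percent of the tested miRNAs called as a rise. miR-29b changed by 1.25 ± 0.66 and was not called (limma, adjusted p = 0.173). Without the fourth array of day 42, the dimmest of its age, miR-29b changed by 1.75 (limma, adjusted p = 0.0527), and without all 6 dimmest arrays by 1.75 with a smaller error (limma, adjusted p = 0.000118). miR-29a* changed by 0.80 ± 0.26 (limma, adjusted p = 0.0231), a call that was lost without array 5 of day 14 (0.50, adjusted p = 0.0627). Without that array the changes of miR-29a, miR-29c and miR-29c* were 1.53, 1.29 and 0.92. With normexp, and its high array 3 of day 14 included, miR-29c* changed by 0.0035 (limma, adjusted p = 0.997). With no scaling miR-29c and miR-29c* were not called (limma, adjusted p = 0.0753 for each).

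Set against the newborn, day 14 was already higher for 4 of 4 members other than miR-29a*, where 21.1 percent of the tested miRNAs were called as a rise. The changes were 1.99 ± 0.23 for miR-29a (limma, adjusted p = 1.43e-07), 2.77 ± 0.62 for miR-29b (0.000754), 2.42 ± 0.32 for miR-29c (1.26e-06) and 1.41 ± 0.18 for miR-29c* (4.83e-07). miR-29a* was detected on 4 of 5 arrays of day 14 and 0 of 5 of day 1. The day 1 arrays were set as for the bound at day 42, and the undetected array 5 of day 14 was left at its measured 7.93. The difference was then 1.36-fold. Since array 5 was undetected, this is not a bound, and it was not computed without that array. The limma adjusted p of 0.00141 is that of the fitted change of miR-29a*, 1.03. Without array 5 of day 14 the changes were 2.28 for miR-29a, 3.03 for miR-29b, 2.72 for miR-29c and 1.59 for miR-29c*, and the fitted change of miR-29a* against its undetected day 1 values was 1.32. With normexp the minor arms turned, to -0.73 for miR-29a* and -0.33 for miR-29c*, and neither was called. Array 3 of day 1 and array 3 of day 14, both high for these arms under normexp, are included. With brightness as a covariate miR-29b changed by 0.57 and miR-29a* by 0.69, and neither was called (limma, adjusted p = 0.305 and 0.0672). Over the 5 ages together, the limma F test called 4 of 4 members other than miR-29a* and 65.5 percent of the tested miRNAs.

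**Figure D3:**
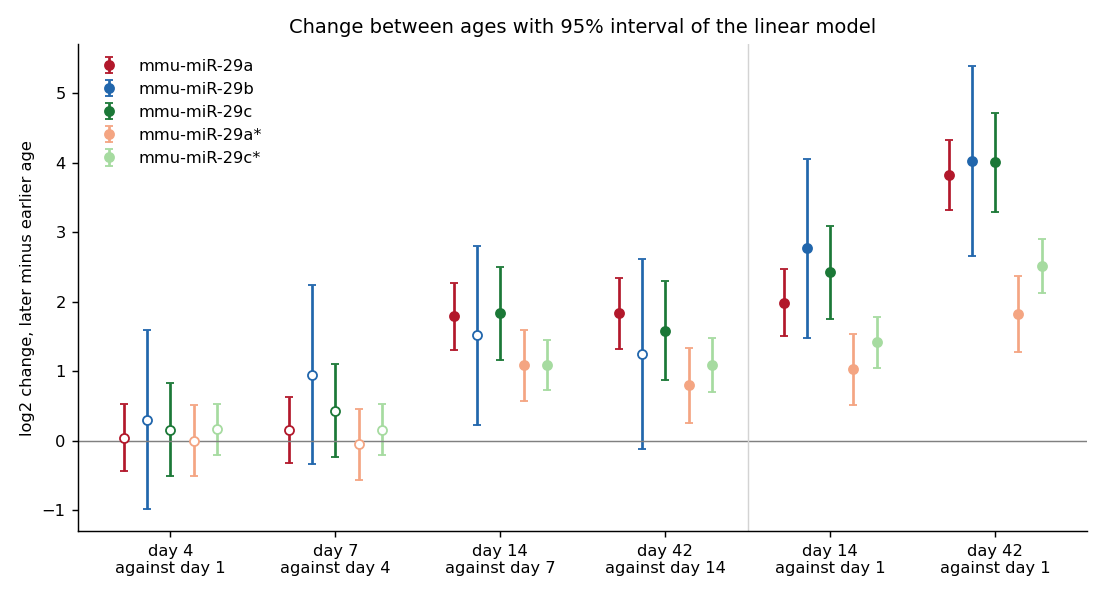
Log2 change of the later minus the earlier age (vertical axis) with its 95% interval, for the 4 neighbouring steps and, right of the line, day 14 and day 42 against day 1 (horizontal axis). Filled points were called at an adjusted p under 0.05. The first 2 steps hold no filled point, and miR-29b has the widest interval in each comparison; with the normexp background correction the points of the minor arms right of the line fall below 0.

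For each name the order of the ages can be read from these tests. By mean log2 level, miR-29a, miR-29b, miR-29c and miR-29c* all ran from day 1 through day 4, day 7 and day 14 to day 42. Among neighbours in that order, day 4 against day 1 and day 7 against day 4 did not pass the test for any of these names. For miR-29b, day 14 against day 7 and day 42 against day 14 did not pass it either. For miR-29a*, day 7 had the lowest mean, followed by day 1 and day 4, all near the floor.

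Whether members changed by unequal amounts was asked with the log2 ratio of 2 members within an array, which needs no scaling between arrays. Of 15 planned comparisons 13 could be tested by an exact permutation test over arrays, two-sided, and 0 passed at an adjusted p under 0.05. The smallest p the arrays allow, 0.0159 or 0.00794 by the number of arrays, could not pass this adjustment for a lone difference. With the floor halved all 15 could be tested and 5 passed. Among them were the 3 given below for the minor arms (exact permutation test, adjusted p = 0.0476), with unchanged differences and exact p. They passed only because comparisons of miR-29a* over miR-29a against day 1 were added, which changed the adjustment. No array of day 1 detected miR-29a*, so the added comparisons give a bound rather than a test, and nothing is concluded from this setting. The ratio of miR-29b to miR-29a was -2.19 ± 0.95 at day 42 (SD, n = 4), against -2.40 ± 1.22 at day 1 (SD, n = 5), a change of 0.21 (exact p = 0.794, adjusted 0.860). The ratio of miR-29c to miR-29a changed by 0.19 (exact p = 0.492, adjusted 0.600) and that of miR-29b to miR-29c by 0.02 (exact p = 0.984, adjusted 0.984). The level of such a ratio depends on the probes, so only its change can be read.

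The ratio of the minor to the main arm was lower at the later ages for the hairpin of miR-29c, without passing the adjusted test. The log2 ratio of miR-29c* to miR-29c was -5.33, -5.43, -5.43 and -4.75 at day 42, against -4.15, -4.21, -4.15, -2.67 and -3.52 at day 1. The arrays did not overlap, and the ratio changed by -1.50 (exact p = 0.0159, the smallest that 4 against 5 arrays allow, adjusted 0.0688). At day 14 the ratio was -4.75, -4.83, -4.95, -4.92 and -4.28, a change of -1.01 against day 1 (exact p = 0.00794, adjusted 0.0688). The highest ratio of each of these ages was on the array with the lowest miR-29c. miR-29a* over miR-29a changed by -1.03 at day 42 against day 14 (exact p = 0.0159, adjusted 0.0688), with no overlap. The dim minor arms lie nearer to background than the main arms, and what this adds to the ratios was not tested.

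**Figure D4:**
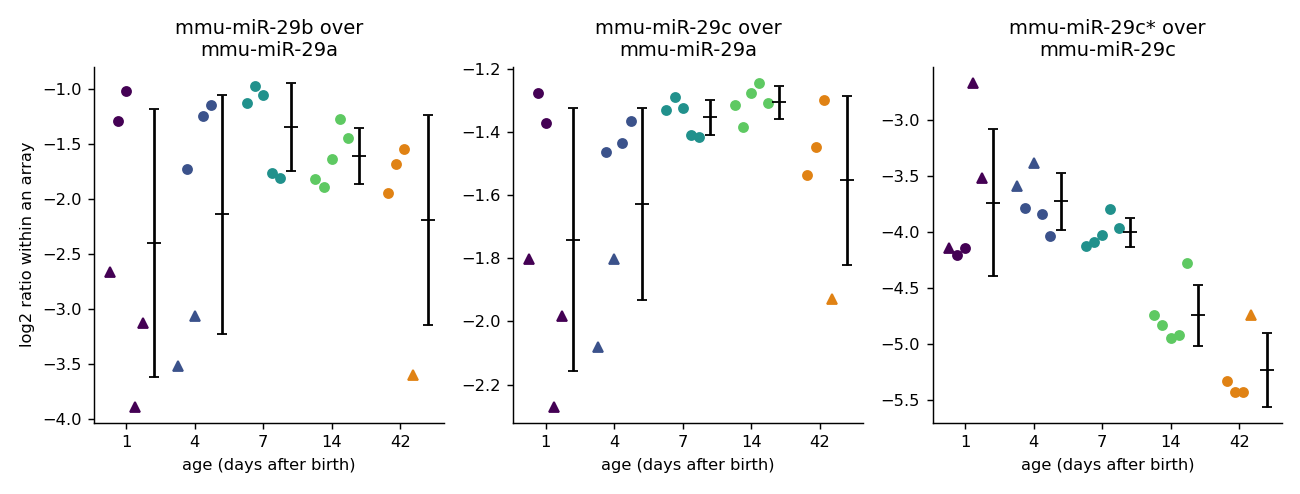
Log2 ratio of 2 names within an array (vertical axis) by age in days (horizontal axis, low to high), 1 mark per array, triangles for the 6 dimmest arrays and black bars for mean ± SD. For miR-29c* over miR-29c the 4 arrays of day 42 lie between -5.43 and -4.75, below the 5 of day 1.

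Each name was read by several probes, whose changes at day 42 against day 1 can be set side by side. The probes of miR-29a changed by 3.64 and 3.90, those of miR-29b by 3.92 and 4.05, those of miR-29c by 3.99 and 4.02, and those of miR-29c* by 2.46 and 2.54. Of the 4 probes of miR-29a*, 1 probe, with 80.9 percent of the day 42 signal, changed by 2.22, and the others by 0.23, 0.00 and 0.00. Probe values were raised to the halved floor before log2. The last 2 probes had medians under it at both ages, 0.84 and 0.55 at day 42 and 0.25 and 0.15 at day 1. Their 0.00 therefore cannot show a lack of change. The probe at 0.23 had a day 1 median of 2.17, also under that floor. miR-29b*, the remaining name of these hairpins, measured 56.2, 54.5, 44.7 and 93.6 at day 42 and 15.9, 21.5, 22.5, 32.3 and 27.3 at day 1, where 2 of 5 arrays detected it. It rose by 1.36 ± 0.24 (limma, adjusted p = 3.95e-05), and its highest array at day 42 was the array with the lowest miR-29b. With normexp its direction turned too, to a mean of 8.08 at day 42, against 9.33 at day 1. The median change over all tested miRNAs was -1.19 under normexp.

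The change against all tested miRNAs depended little on scaling for the main arms. At day 42 against day 1 the median over all tested miRNAs was -0.35 with the scaling used, 0.01 with median scaling and 0.64 with none. Above that median, miR-29a rose by 3.31 to 4.18, miR-29b by 4.13 to 4.39, miR-29c by 3.76 to 4.37 and miR-29c* by 2.86 to 3.24 over 6 scalings.

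**Figure D5:**
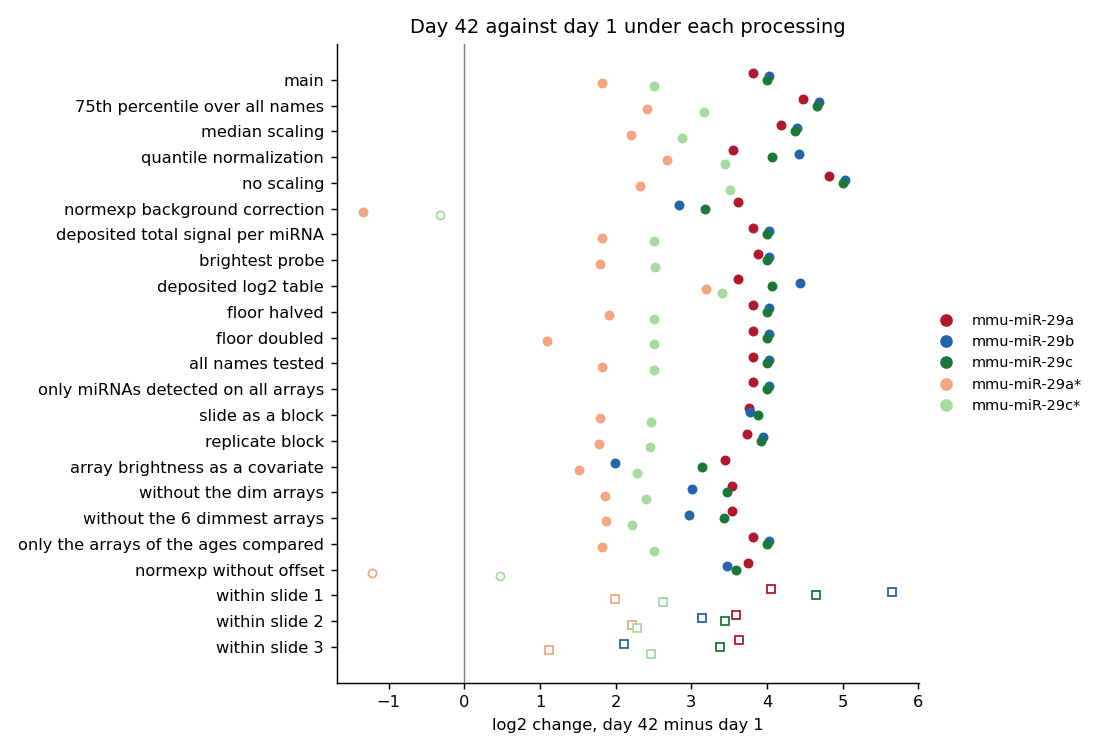
Log2 change of day 42 minus day 1 (horizontal axis) for the 5 names under each processing (vertical axis). Filled circles were called at an adjusted p under 0.05, open circles were not, and squares, within a slide of arrays, have no test. The changes of miR-29a* are against undetected day 1 values. Only the normexp corrections put miR-29a* below 0, and miR-29b ranges from 1.99 with brightness as a covariate to 5.65 within slide 1.

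Other miRNAs followed or mirrored the main arms over the 24 arrays. By Pearson's r with the mean of miR-29a, miR-29b and miR-29c, the closest of 316 others were miR-338-3p (0.953), miR-192 (0.925), miR-22 (0.906), miR-146b (0.902), miR-142-5p (0.902), miR-34b-5p (0.882), miR-34c (0.880) and miR-22* (0.868). miR-142-5p is known from leukocytes, and miR-34b-5p and miR-34c from multiciliated epithelium. Their rises at day 42 against day 1 ran from 0.93 for miR-192 to 2.35 for miR-142-5p, smaller than those of the main arms. The lowest r were -0.984 for miR-106b*, -0.975 for miR-296-5p and -0.972 for miR-434-3p and miR-329. The last pair lies in the imprinted Dlk1-Dio3 region, and they changed by -4.45 and -4.01. Among the members, miR-29a had an r of 0.984 with miR-29c and with miR-29c*, 0.931 with miR-29a* and 0.868 with miR-29b. The 24 points fall into 5 ages and share array brightness, and no r was taken within an age.

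Other miRNAs reported to act on matrix or TGF-beta signalling moved in both directions. Of 23 such miRNAs, 7 rose and 3 fell at day 42 against day 1, with a median change of 0.35, beside 61 rises, 138 falls and a median of -0.35 over all tested miRNAs. Without scaling these splits were 16 rises and 1 fall in the list, and 145 rises and 58 falls over all tested miRNAs. Named by size among those called, miR-155 rose by 1.80 ± 0.22, miR-192 by 0.93 ± 0.16 and miR-26b by 0.88 ± 0.19. miR-214 changed by -2.19 ± 0.35, miR-199a-5p by -1.61 ± 0.15 and miR-199a-3p by -0.78 ± 0.13, all of which are abundant in fibroblasts.

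Markers of cell types moved over the same ages, and their part in the miR-29 rise was not tested. Over all 322 tested miRNAs 61 rose and 138 fell at day 42 against day 1, and the counts below stand beside these. Of 7 leukocyte miRNAs 6 rose, and their summed scaled signal was 13901 to 17345 at day 42 and 7904 to 10215 at day 1. Of 4 endothelial miRNAs 3 rose, with sums of 63508 to 85813 at day 42 and 33254 to 50445 at day 1. Of 5 fibroblast and smooth muscle miRNAs 0 rose and 3 fell, with sums of 11990 to 14732 at day 42 and 18790 to 25067 at day 1. These lists overlap with the matrix list: it holds all 5 of these miRNAs, so its 3 falls are the same, and miR-155 of the leukocyte list. The matrix list also holds the epithelial list except miR-205, and miR-133a and miR-133b of the striated muscle list. Of 6 epithelial miRNAs 1 rose and 1 fell, and of 3 red cell miRNAs 0 were called either way. Over 6 scalings, 5 to 7 leukocyte and 2 to 4 endothelial miRNAs rose, while 0 to 2 of the fibroblast and smooth muscle list rose and 1 to 3 fell, with a median between -1.15 and 0.23. In the same scalings 1 to 4 epithelial miRNAs rose and 0 to 1 fell, and 0 to 2 red cell miRNAs rose. Over all tested miRNAs these scalings gave 61 to 145 rises and 58 to 138 falls. With normexp 5 leukocyte and 1 endothelial miRNAs rose, beside 39 rises over all tested miRNAs. Without its offset these were 4 and 1, beside 34. Of the fibroblast and smooth muscle list 0 rose and 3 fell in both normexp settings. The epithelial miR-200 members and endothelial miR-126 were detected, but markers of cell types cannot by themselves establish the organ. Of 6 miRNAs of other organs miR-124, miR-216a and miR-217, of brain and pancreas, were detected on no array. The other 3, miR-122, miR-9 and miR-375 of liver, brain and endocrine cells, were detected on at least 1 array, and 1 of them on all, with sums over the list of 216 to 406 at day 42 and 181 to 304 at day 1. Of 6 striated muscle miRNAs 4 were tested and 1 fell, with sums of 1208 to 3858 at day 42 and 366 to 37329 at day 1. The day 1 arrays thus differed widely in striated muscle miRNAs, and the source of this was not tested.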

How the data were processed

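Total RNA of 24 whole lung samples was labelled with Cy3 from 100 ng per array for a 1-colour Agilent miRNA array, per the labels' protocols. Per the file headers, the deposited intensity values come from Agilent Feature Extraction 10.7.1.1, background-subtracted per spot and not adjusted between arrays. The deposited table of log2 values has the same median of 2.41 in every column, with its scaling otherwise not given in the sources used here, and served as an alternative. Here, processed spot intensities were averaged per probe without the 319 to 523 outlier spots per array, probes were summed per miRNA, and arrays were scaled to a common 75th percentile over the 228 miRNAs that all arrays detected, with a floor of 7.24 (2.86 in log2) set before log2. Of 650 names, 383 were detected on any array, and the 322 detected on all arrays of at least 1 age were tested. Array number and signal over background limit the precision.

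The 5 ages were groups in 1 limma model (limma 3.58.1, R 4.3.3) over all 24 arrays with 19 residual degrees of freedom, two-sided, with Benjamini-Hochberg adjustment over the 322 miRNAs in each comparison. A value after ± is the model's standard error, or the SD where so marked. Ratios of members within an array were tested by exact permutation over arrays (scipy 1.17.1), adjusted over 13 comparisons. The replicates are biological per the labels, and p-values measure the spread between these arrays. Arrays lay on 3 slides, each with arrays of all ages. The members and the lists of matrix and cell type miRNAs were chosen with earlier results of these data known. All names on the miR-29 hairpins are named, with the 8 highest and 4 lowest correlations, and at most 3 called rises and 3 called falls of the matrix list. Alternatives were 4 other scalings, the deposited totals and table, normexp on the median spot and background intensities (the files used hold no mean), other floors and filters, slide or replicate blocks, brightness as a covariate, and arrays left out. Leaving out the 6 dimmest arrays and normexp without offset were chosen after seeing the data. The scripts were tested on simulated data.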

Additional observations from a re-analysis of the deposited data

Results flagged for a closer look

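Of 25 groups of arrays (5 names at 5 ages), 8 held an array far from the rest of its group, where chance alone marks about 1 in 20 groups. Array 5 of day 14 was the low array for 4 names: it was at 11.08 on the log2 scale for miR-29a (the others 12.51 to 12.69), 9.78 for miR-29c (11.19 to 11.31), 2.99 for miR-29a* (4.20 to 4.64) and 5.50 for miR-29c* (6.32 to 6.48). Array 4 of day 42, the dimmest of its age, was at 10.40 for miR-29b (12.27 to 12.53) and 12.08 for miR-29c (12.66 to 12.77). For miR-29c*, array 1 of day 4 was at 4.41 (5.00 to 5.24), below detection, and array 2 of day 42 at 7.24 (7.33 to 7.34), where the whole range was small.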

How the results depend on the processing

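Of 2267 values recomputed under alternatives, 2181 kept their direction and side of the threshold or moved by less than the spread between replicates. In 62 of these the sign changed while neither value was called. Part of this agreement was fixed in advance, since leaving out an array of an age outside a comparison cannot move its fitted change. The deposited total signal per miRNA gave the same changes as the probe sums. For day 42 against day 1, leaving out single arrays gave 3.66 to 3.91 for miR-29a, 3.49 to 4.52 for miR-29b, 3.71 to 4.19 for miR-29c, 1.64 to 1.94 for miR-29a* and 2.44 to 2.59 for miR-29c*. Under normexp the minor arms reversed or lost their call: miR-29a* changed by -1.34 at day 42 and -0.73 at day 14 against day 1 and by -0.61 at day 42 against day 14, and miR-29c* by -0.32 and -0.33 against day 1. Without its offset the values were -1.22, -0.51 and -0.71 for miR-29a* and 0.47 for miR-29c* at day 42 against day 1. With the offset, array 3 of day 1 and array 3 of day 14 stood far above their groups for the minor arms, and they were not left out. Under normexp miR-29a* averaged 7.95 at day 42 and 9.29 at day 1, and spots of the 267 never detected names lay a median of 14 to 20 units above their local background. Counts of names called in this section include miR-29a* and are not read as a result about the members. The number of names called was 3, against 5 in the reported values, for day 42 against day 1 (normexp without offset) and for day 14 against day 1 and the F test (both normexp settings). With normexp and its offset it was 4 for day 42 against day 1, with miR-29a* called as a fall. Over all tested miRNAs that setting called 39 rises and 203 falls, against 61 and 138 in the reported values. With either normexp setting it was 2 for day 14 against day 7 (reported value 4) and for day 42 against day 14 (reported value 4). Testing only miRNAs detected on all arrays left out the minor arms and gave the same counts of 3, 3, 2, 2 and 3. Brightness as a covariate gave 3 for day 14 against day 1, and no scaling gave 1 for day 42 against day 14. miR-29b at day 14 against day 7 passed the test under 9 alternatives, among them scaling over all names (1.88) and the slide as a block (1.66). The call of miR-29a* at day 42 against day 14 was also lost with all names tested (0.80), with only these ages (0.80) and without array 3 of day 42 (0.61). Replicate numbers did not pair arrays: deviations of same-numbered arrays had a median correlation of -0.02 (46 pairs), against -0.01 for others. The replicate block gave 3.74, 3.94, 3.92, 1.77 and 2.45 for miR-29a, miR-29b, miR-29c, miR-29a* and miR-29c* at day 42 against day 1 and ended only the call of miR-29a* at day 42 against day 14 (0.75, adjusted p = 0.0529). Within slides of 1 to 2 arrays per age, with no test, day 42 against day 1 gave 5.65 (slide 1) and 2.10 (slide 3) for miR-29b, 4.64 (slide 1) and 3.38 (slide 3) for miR-29c, 2.22 (slide 2) and 1.11 (slide 3) for miR-29a*, and 2.28 (slide 2) for miR-29c*. With the floor halved, 15 member ratios could be tested and 5 differed, against 0 of 13. That count rests on added comparisons with undetected day 1 values of miR-29a*, so nothing is concluded from it. Except where a construction is named, the cause was not tested. Signal over background limits the minor arms.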
